A study of Mus musculus with 6 samples.

Results

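The 8 genes described here are the respiratory-chain genes of mitochondrial DNA that the expression table lists under the names ND1, ND2, ND3, ND4, ND5, ND6, COX1 and CYTB. They were found by their symbols among 12067 lines, 1 line each. They are 8 of the 13 protein-coding genes of mouse chromosome M, and the other 5 were not analysed here. All 6 libraries came from muscle stem cells of male C57BL/6 mice, sorted for VCAM among cells that lacked CD45, CD31 and Sca1. Every sample was then stained with 5 uM ThiolTracker Violet, a dye that reads out reduced glutathione (GSH, the main thiol antioxidant of the cell), and sorted again. The young group (4 months) kept all cells, is labelled as high in glutathione and has 1 animal per library. At 23 months, the bright cells form the old GSH-high group and the dim cells the old GSH-low group, with 2 pooled animals per library. Each group has 2 libraries, so that every p-value below rests on very few samples.

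Mitochondrial DNA is read from both strands as long RNAs, which are cut into messenger, ribosomal and transfer RNAs, after which most messenger RNAs receive a poly(A) tail. The ND proteins are core subunits of complex I, which takes electrons from NADH and pumps protons. CYTB is a haem-bearing subunit of complex III, which hands electrons to cytochrome c, and COX1 is the catalytic subunit of complex IV, which reduces oxygen. Each complex also needs many subunits from nuclear genes, which are made in the cytoplasm and imported. Resting muscle stem cells are known for few mitochondria, whose number grows upon activation.

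The libraries were primed with oligo(dT), so the 3′ ends of the transcripts matter for what was captured. The last 24 bases of 4 genes are shown, 5′ to 3′ on the coding strand, with the encoded part of the stop codon in capitals. The sequences are those of the GENCODE M21 transcripts on build GRCm38.
CYTB, chrM:14145-15288, plus strand: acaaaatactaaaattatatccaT
ND4, chrM:10167-11544, plus strand: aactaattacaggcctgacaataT
ND3, chrM:9459-9806, plus strand: aaaggattagaatgaacagagTAA
ND6, chrM:13552-14070, minus strand: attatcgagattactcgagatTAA
CYTB and ND4 end in a lone T, and the added poly(A) tail completes their stop codon. The other 6 genes encode all 3 bases of theirs. The annotation has each gene as 1 coding exon without introns. ND1 lies at chrM:2751-3707, ND2 at chrM:3914-4951, COX1 at chrM:5328-6872 and ND5 at chrM:11742-13565, all on the plus strand.

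ND6 is the only member on the minus strand, and its end overlaps that of ND5 over 14 bases (chrM:13552-13565). The last 30 bases of both genes are shown with the overlap in capitals.
ND5: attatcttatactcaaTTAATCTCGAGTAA
ND6: tttattattatcgagaTTACTCGAGATTAA
The strand setting of the counting is not given in the sources used here. Reads of ND6 and of RNA from the opposite strand of the same segment therefore cannot be told apart.

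Parts of mitochondrial DNA were copied into the nuclear genome, and reads of 150 bases that fit both places are uncertain. Annotated copies of at least 95% identity were found for 5 of the 8 genes. ND3 matched Gm28438 (chr1:24612775-24613119, minus strand) over 345 bases with 1 mismatch. In the next lines the first 33 bases of ND3 stand above those of the copy, with the differing base in capitals. Counted from 1 at the first base of the gene, the change is T3C.
ND3: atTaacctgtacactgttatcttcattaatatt
Gm28438: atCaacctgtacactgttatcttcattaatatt
The first 876 bases of ND4 matched Gm28439 (chr1:24611535-24612410) without a mismatch. The last 483 bases of COX1 matched Gm29216 on chromosome 1 with 1 mismatch, A1066T, and all of COX1 matched Gm13340 on chromosome 2 at 97.61% identity. ND2 and ND5 had copies of 96.67% and 95.18% identity over 510 and 954 bases. No annotated copy reached 95% for ND1, ND6 and CYTB.

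Cut into windows of the read length, 97.0% of ND3 (193 of 199 windows) occurred letter for letter in an annotated nuclear copy. For ND4 this share was 59.2%, for COX1 23.6%, and for the other 5 genes 0%. How reads with more than 1 place were handled is not given in the sources used here. The part of the copies in the levels below was not tested.

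**Figure D1:**
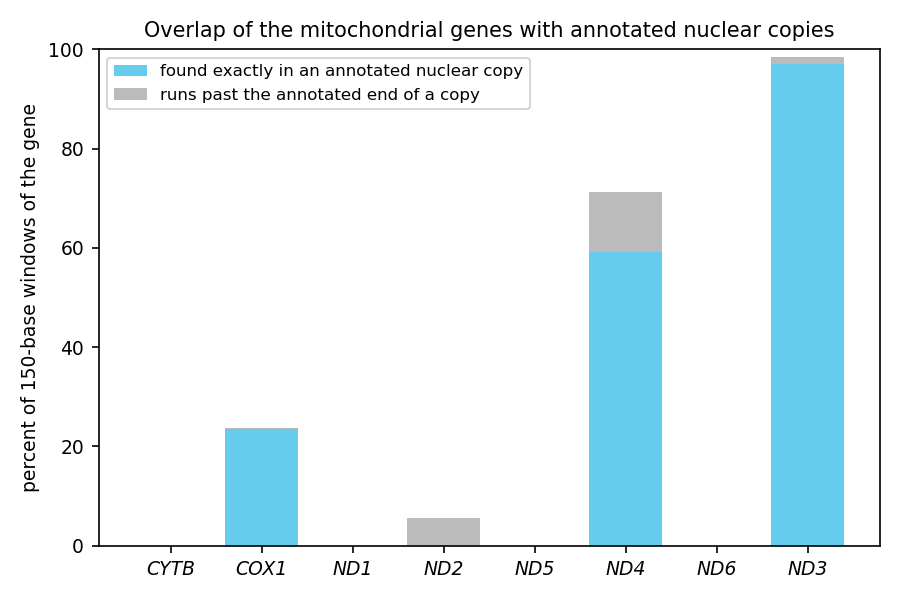
Percent of all 150-base windows of each gene (y axis) that occurred exactly in an annotated nuclear copy (blue) or ran past the annotated end of a matching copy (grey), with the genes ordered by mean level from CYTB to ND3. ND3 stands at 97.0% and ND4 at 59.2%, while ND1, ND5, ND6 and CYTB have none.

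The table gives RPKM, which is reads scaled to gene length and to library size. Whole read numbers were recovered from it and totalled 47.0 to 68.8 M per library. All 10 satellite cell markers, Pax7, Myod1 and Vcam1 among them, were at 1 RPKM or more in every library. They summed to 3115 and 2909 RPKM in young, 3009 and 2840 in old GSH-high, and 2544 and 2392 in old GSH-low libraries. The old GSH-low sums were thus the lowest. Summed levels of markers of other cells differed between groups. The 8 tenocyte (tendon cell) markers summed to 35.1 and 37.9 RPKM in young, 634 and 802 in old GSH-high and 2642 and 3034 in old GSH-low libraries. The 10 endothelial markers summed to 19.6 to 71.0 RPKM over the libraries, the 8 listed myofibre markers to 24.2 to 51.6, the 3 listed fat cell markers to 0.107 to 68.9, the 7 listed B lymphocyte and macrophage markers to 6.30 to 47.1, and the 8 smooth muscle and pericyte markers to 636 to 952. All 3 fat cell markers were under 1 RPKM in both young libraries. The part of other cells in the levels of the 8 mitochondrial transcripts was not tested.

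Young replicate 1 stood apart for these genes before any group was compared. It had the highest level of 7 of the 8 members, and all 8 were higher there than in young replicate 2. The ratio between these libraries ran from 1.18 for ND5 to 1.93 for ND3. The median member differed by 0.43 on the log2 scale, against 0.02 for the median of all genes tested, and 1.74% of genes tested lay at or above the member median. Each comparison with young is therefore given with and without that library.

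CYTB was the most abundant member. It stood at 1811 and 1426 RPKM in young, 1361 and 1296 in old GSH-high, and 1474 and 1364 in old GSH-low libraries. Its mean ranked 11th of all lines in the table. The old GSH-high libraries were the lowest pair, but the higher of them (1361) lay barely under the lower old GSH-low library (1364). Of all genes tested, 33.7% were lower in old GSH-high than in young libraries without overlap, and 25.7% lower than in old GSH-low libraries.

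COX1 was measured at 1054 and 847 RPKM in young, 886 and 765 in old GSH-high, and 908 and 838 in old GSH-low libraries. Its groups overlapped in all comparisons. ND1 stood at 1002 and 779 RPKM in young, 726 and 758 in old GSH-high, and 779 and 744 in old GSH-low libraries. Only young replicate 1 of the 6 ND1 values was clearly set off from the rest.

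ND2 stood at 476 and 336 RPKM in young, 325 and 352 in old GSH-high, and 371 and 338 in old GSH-low libraries, with overlap between all groups. ND4 stood at 448 and 301 RPKM in young, 269 and 274 in old GSH-high, and 321 and 290.4 in old GSH-low libraries. The old GSH-high libraries held the lowest ND4 levels, below both other groups.

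ND5 had another order than the rest. It stood at 358 and 304 RPKM in young, 322 and 399 in old GSH-high, and 344 and 280.2 in old GSH-low libraries. Its highest value was in old GSH-high replicate 2 and its lowest in old GSH-low replicate 2, and the spread within each group was as wide as that between groups. ND6 stood at 279.6 and 196.5 RPKM in young, 186 and 201 in old GSH-high, and 199.9 and 201 in old GSH-low libraries. Without young replicate 1, its other 5 values lay between 186 and 201 RPKM.

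ND3 was far below the other members, with 7.85 and 4.06 RPKM in young, 3.49 and 3.16 in old GSH-high, and 3.36 and 3.46 in old GSH-low libraries. It is also the shortest gene, at 348 bases, and these levels rest on 166 and 83, 84 and 68, and 60 and 58 reads. Per M recovered reads that is 2.63 (95% exact binomial interval 2.25 to 3.06) in young replicate 1. It is 1.38 (1.10 to 1.71) in young replicate 2, against 1.12 to 1.23 in the old libraries. The intervals cover counting error only. Young replicate 2 is thus not set off from the old libraries by its count of ND3.

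**Figure D2:**
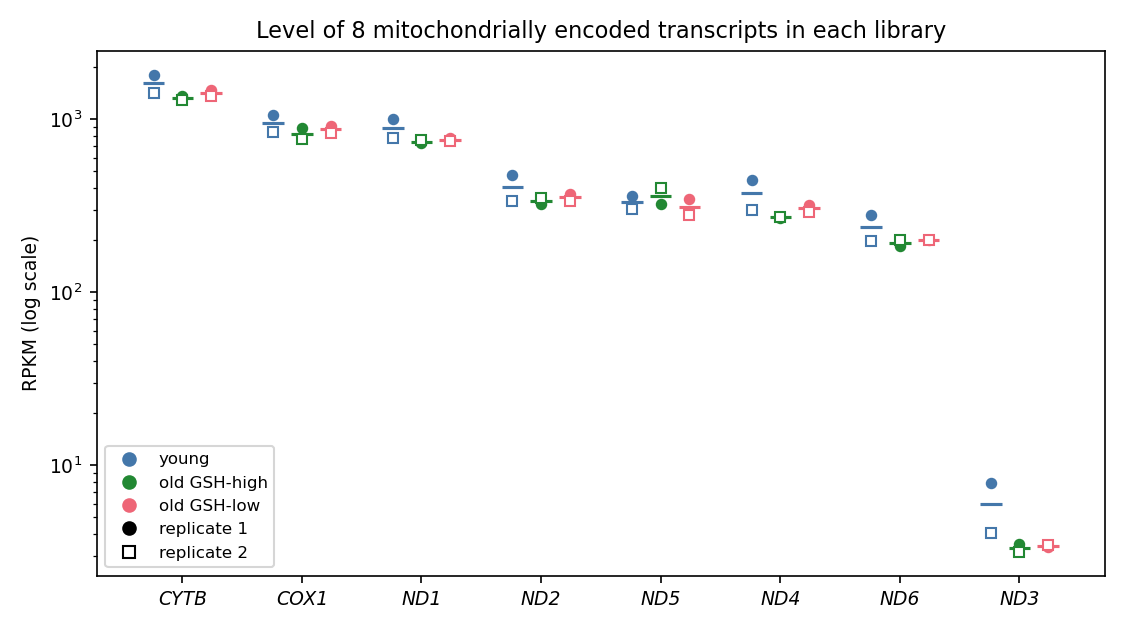
RPKM of each transcript (y axis, log scale) in each library, with filled circles for replicate 1, open squares for replicate 2, colours for the groups and short lines for the group means. CYTB lies at 1296 to 1811 RPKM and ND3 at 3.16 to 7.85, and young replicate 1 is the top point for every gene but ND5.

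The order of the members was largely the same in every library. The lowest CYTB value (1296 RPKM) lay above the highest COX1 value (1054). COX1 was above ND1 within each of the 6 libraries, but their ranges over libraries overlapped. The ranges of ND2, ND4 and ND5 also overlapped. ND2 was above ND4 within each of the 6 libraries, whereas the place of ND5 among these 3 changed between libraries. ND6 ranged from 186 to 279.6 RPKM, which overlaps with ND4 alone. By mean level COX1 ranked 29th and ND1 32nd of all lines, ND2, ND5, ND4 and ND6 between 90th and 178th, and ND3 6516th.

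Ratios between members within a library do not depend on the scaling between libraries. CYTB over COX1 ranged from 1.54 to 1.72 and ND1 over ND2 from 2.10 to 2.32. CYTB over ND3 ranged from 231 in young replicate 1 to 439 in old GSH-low replicate 1. The ratio of ND4 to ND5, which lie next to each other among the protein-coding genes of the plus strand, was less even. It was 1.25 and 0.99 in young, 0.84 and 0.69 in old GSH-high, and 0.93 and 1.04 in old GSH-low libraries. The old GSH-high values lay below both other groups. The same held for CYTB over ND5 (4.23 and 3.25 against 4.285 to 5.06 in the other groups). It also held for ND6 over ND5 (0.578 and 0.504 against 0.581 to 0.781), so the pattern is not particular to the neighbouring pair. These ratios share ND5, were chosen after their values were seen and have no test.

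The 8 members took 0.633% and 0.4998% of the reads recovered for the listed genes in the young libraries. The shares were 0.504% and 0.506% in the old GSH-high, and 0.546% and 0.506% in the old GSH-low libraries. In bulk RNA of sorted cells, fewer cells of a type and less RNA per cell cannot be told apart. The mean share was 0.566% ± 0.0941 (SD, n = 2) in young, 0.505% ± 0.000919 in old GSH-high and 0.526% ± 0.0289 in old GSH-low cells. The difference of old GSH-high from young was -0.0613 percentage points, and that of old GSH-low from young -0.0403 (exact permutation p = 1.0 for both, two-sided). Old GSH-low exceeded old GSH-high by 0.021 percentage points (exact permutation p = 0.667). The 3 adjusted values are 1.0, and 2 against 2 libraries cannot give a p below 0.33. Without young replicate 1 both differences from young turned positive, at 0.00525 and 0.0262 percentage points.

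**Figure D3:**
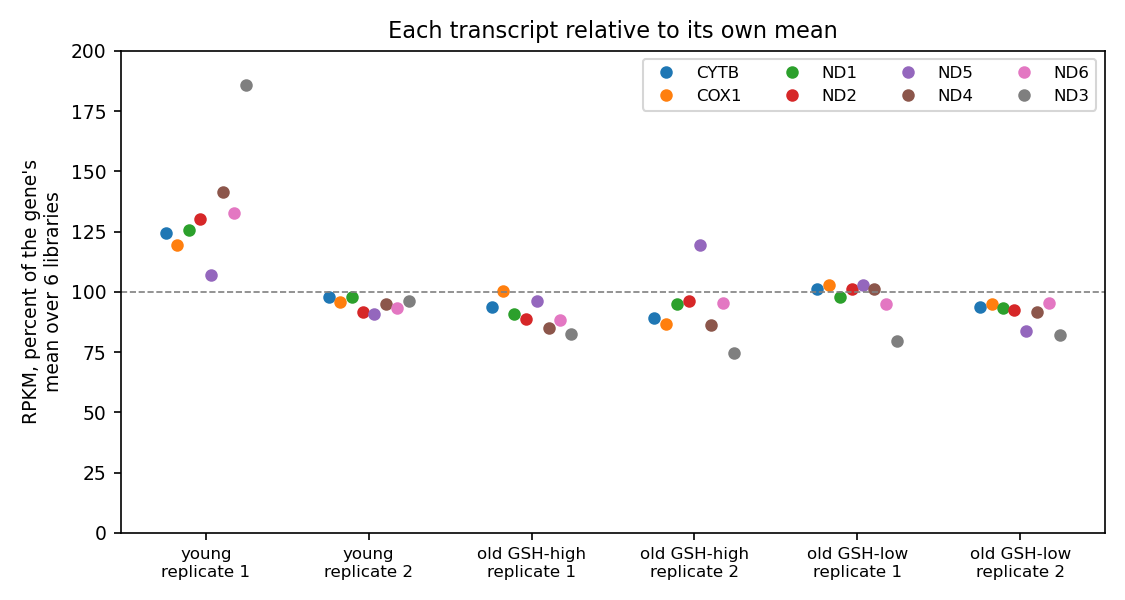
RPKM of each transcript in each library as percent of its own mean over the 6 libraries (y axis), with 1 colour per gene and a dashed line at 100%. Young replicate 1 holds the high points, from 107% for ND5 to 186% for ND3, and ND5 stands alone at 119% in old GSH-high replicate 2.

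All 8 members passed the filter on low values, which asks for an RPKM of 1 or more in at least 2 libraries, and each was above 1 in all 6. When old GSH-low cells were set against old GSH-high cells, which asks whether cells of 1 age differ with their glutathione, 0 of the 8 members passed the test (limma-trend on log2(RPKM + 1), Benjamini-Hochberg adjusted p under 0.05 over 10609 genes). Over all genes tested, 5.38% passed. At an unadjusted p under 0.05 the count was also 0, against 19.2% of all genes tested. Limma-voom on the recovered reads called 0 at an adjusted p under 0.05, where it called 6.04% of genes.

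ND4 had the highest fitted difference, 0.17 on the log2 scale (SE 0.16, limma adjusted p = 0.637), and CYTB stood at 0.09 (SE 0.13, limma adjusted p = 0.746). Both were higher in old GSH-low cells without overlap, CYTB barely (1364 against 1361 RPKM), as were 25.7% of all genes tested. ND5 was the only member on the other side, at -0.21 (SE 0.14, limma adjusted p = 0.486). The median of the 8 differences was 0.06, against -0.01 for all genes tested. The 95% intervals of the 8 members reach from a fold of 0.692 (ND5) to 1.46 (ND4). A change of a member inside its own interval, such as 0.843 to 1.25 for ND1, remains possible. For ND3 the interval was 0.728 to 1.43.

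In the comparison of old GSH-high with young cells, 0 of the 8 members passed limma-trend at an adjusted p under 0.05, where 28.8% of all genes tested did (13.7% as lower). At an unadjusted p under 0.05 there were 2 members, ND3 and ND4, against 41.4% of all genes tested. ND3 stood at -0.63 (SE 0.21, limma adjusted p = 0.0561) and ND4 at -0.43 (SE 0.16, limma adjusted p = 0.0785). Limma-voom on the recovered reads called 1 member, ND4, at -0.44 (adjusted p = 0.0447), where it called 31.8% of genes. The adjusted p of ND4 ranged from 0.00125 to 0.286 over the alternatives.

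The other members were at -0.28 for ND6 and CYTB, -0.25 for ND1, -0.24 for ND2, -0.20 for COX1 and 0.12 for ND5, with limma adjusted p from 0.139 to 0.573. In all, 7 of 8 fitted differences were below 0, and their median was -0.26, against -0.004 for all genes tested. ND1, ND3, ND4 and CYTB were lower in old GSH-high cells without overlap, as were 33.7% of all genes tested. Without young replicate 1 the median was -0.06 and 0 members were called, where 22.2% of genes were. Without young replicate 2, 7 members were called lower, all but ND5, where 18.5% of genes were. ND3 was then at -1.03 and ND4 at -0.72. With a trend over gene length and GC content removed, 6 were called lower, where 20.9% of genes were. The count of members called thus depended on which young library entered the fit and on whether that trend was removed. A fit without a young library has only 1 left in that group, and its spread then comes from the old libraries alone.

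In the comparison of old GSH-low with young cells, which shares the young libraries with the last, 0 of the 8 members passed limma-trend. The test called 36.8% of all genes (18.7% as lower). ND3 alone had an unadjusted p under 0.05, at -0.60 (SE 0.21, limma adjusted p = 0.0557), against 46.8% of all genes tested. Limma-voom called 0 at an adjusted p under 0.05, where it called 37.2% of genes. All 8 differences were below 0, from -0.09 for ND5 and -0.12 for COX1 to -0.26 for ND4 and -0.60 for ND3, and their median was -0.20, against -0.02 for all genes tested.

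ND3 was the only member without overlap between old GSH-low and young cells, where 36.5% of all genes tested were lower in that way. Without young replicate 1, 5 members (ND2, ND4, ND5, ND6 and COX1) turned to values between 0.02 and 0.08. 0 members were then called, where 32.0% of genes were. Without young replicate 2, 6 were called lower (ND1, ND2, ND3, ND4, ND6 and CYTB), where 21.7% of genes were. With the trend over length and GC content removed, the same count of 6 was called lower, where 27.1% of genes were.

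**Figure D4:**
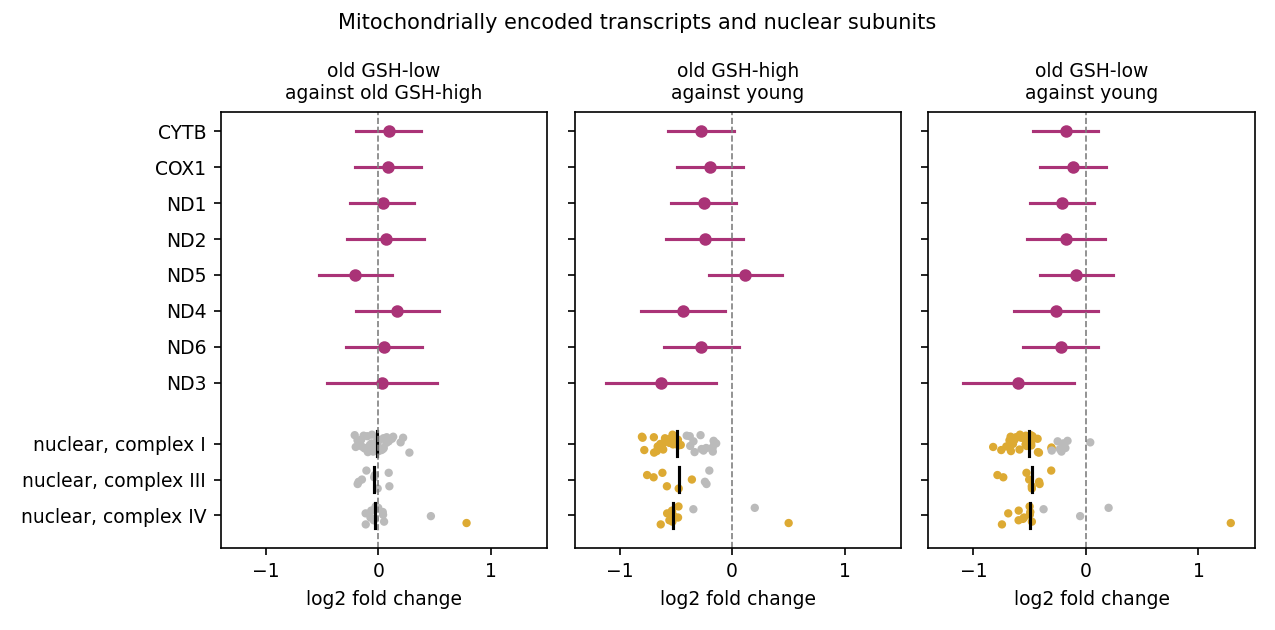
Fitted log2 fold change (x axis) in the 3 comparisons, with purple points and 95% intervals for the 8 mitochondrially encoded transcripts and small points for the nuclear subunits of complexes I, III and IV (orange where the adjusted p was under 0.05, grey where not, black line at the list's median). The nuclear medians lie near -0.5 in both comparisons with young, while most mitochondrial points lie between 0 and -0.3, and the rightmost orange point is Cox8b.

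Many nuclear partners of these proteins were lower in the old than in the young libraries. Age, the number of animals per library and the sort by dye cannot be told apart here, and the part of other cells in these counts was not tested either. Of 36 nuclear genes of complex I, 21 fell in old GSH-high and 28 in old GSH-low against young cells, and none rose. Their median differences were -0.49 and -0.51. Of 9 nuclear genes of complex III, 6 and 9 fell (medians -0.48 and -0.48). Of 14 tested of complex IV, 11 and 10 fell (medians -0.53 and -0.50), and Cox8b rose in both, by 0.50 in old GSH-high and 1.29 in old GSH-low cells. These counts stand against 13.7% and 18.7% of all genes that fell. Between the old groups, 0 of the 36 and 0 of the 9 passed, and Cox8b alone rose among the 14, by 0.78. Cox8b was weakly expressed, with means of 1.39 RPKM in young, 2.36 in old GSH-high and 4.83 in old GSH-low cells.

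Ndufs6, an accessory subunit of the arm of complex I that takes up electrons, was at 35.6 ± 5.41 RPKM in young and 20.2 ± 0.354 in old GSH-high cells (SD, n = 2; limma adjusted p = 0.00269), and Ndufa13 fell by 0.80 on the log2 scale in the same comparison. Ndufs1, which carries iron-sulphur clusters, fell by 0.31 in old GSH-low against young cells (limma adjusted p = 0.019) and did not pass in old GSH-high cells (-0.17). In complex III, Uqcrb fell by 0.70 and 0.73 in old GSH-high and in old GSH-low cells, and the haem protein Cyc1 passed only in the second, at -0.31 after -0.20. In complex IV, Cox4i1, the common form of subunit 4, was at 248 and 196 RPKM in young, 155 and 162 in old GSH-high, and 144 and 168 in old GSH-low libraries. It fell by 0.48 and 0.50 (limma adjusted p = 0.0218 and 0.0145).

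These counts also depended on the libraries. In young replicate 1, 35 of the 36 nuclear genes of complex I were above young replicate 2, as were 9 of 9 of complex III and 13 of 14 of complex IV. Without that library, 16, 2 and 4 genes of the complexes I, III and IV fell in old GSH-high and 18, 6 and 7 in old GSH-low cells. Without old GSH-high replicate 1 the first set was 8, 0 and 2, and without old GSH-high replicate 2 it was 14, 3 and 3. Without old GSH-low replicate 1 the second set was 6, 1 and 3. In each of these fits the list medians stayed below 0. The rise of Cox8b in old GSH-high against young cells was lost by limma-voom and without young replicate 2, old GSH-high replicate 1 or old GSH-high replicate 2. That between the old groups was lost by limma-voom and without either old GSH-high library or old GSH-low replicate 2, while that in old GSH-low against young cells held in all these fits.

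The members and their nuclear partners were then set against each other within each library, where scaling between libraries cancels. This ratio was chosen after the data were seen. The 6 ND genes summed to 2.09 and 1.98 times their nuclear partners in RPKM in young, 2.43 and 2.58 times in old GSH-high, and 2.91 and 2.27 times in old GSH-low libraries. Both old groups lay above the young group.

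CYTB over the nuclear genes of complex III was 2.29 and 2.25 in young, 2.73 and 2.52 in old GSH-high, and 3.24 and 2.60 in old GSH-low libraries. COX1 over those of complex IV was 0.642 and 0.676 in young, 0.91 and 0.752 in old GSH-high, and 0.991 and 0.777 in old GSH-low libraries. Over all 8 members and 59 nuclear genes, the ratio was 1.48 and 1.47 in young, 1.83 and 1.76 in old GSH-high, and 2.13 and 1.68 in old GSH-low libraries. The young libraries, which were far apart in the levels of the members, were close in this ratio.

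The means of old GSH-high over young differed 1.23-fold for complex I, 1.15-fold for complex III and 1.26-fold for complex IV. Those of old GSH-low over young differed 1.27-fold, 1.28-fold and 1.34-fold. Each of the 8 comparisons with young had an exact permutation p of 0.33, the smallest that 2 against 2 libraries can give, and an adjusted value of 0.5 over 12 ratios compared. The old groups overlapped with each other in all 4 ratios. With geometric means in place of sums, which weigh weak and strong genes alike, old GSH-high cells still lay above young cells in all 4. Old GSH-low cells then overlapped with young cells for complex I (11.7 and 9.48 against 9.68 and 8.44) and for complex IV (34.8 and 27.0 against 27.4 and 27.1), and also over all members. For complex III they did not overlap.

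**Figure D5:**
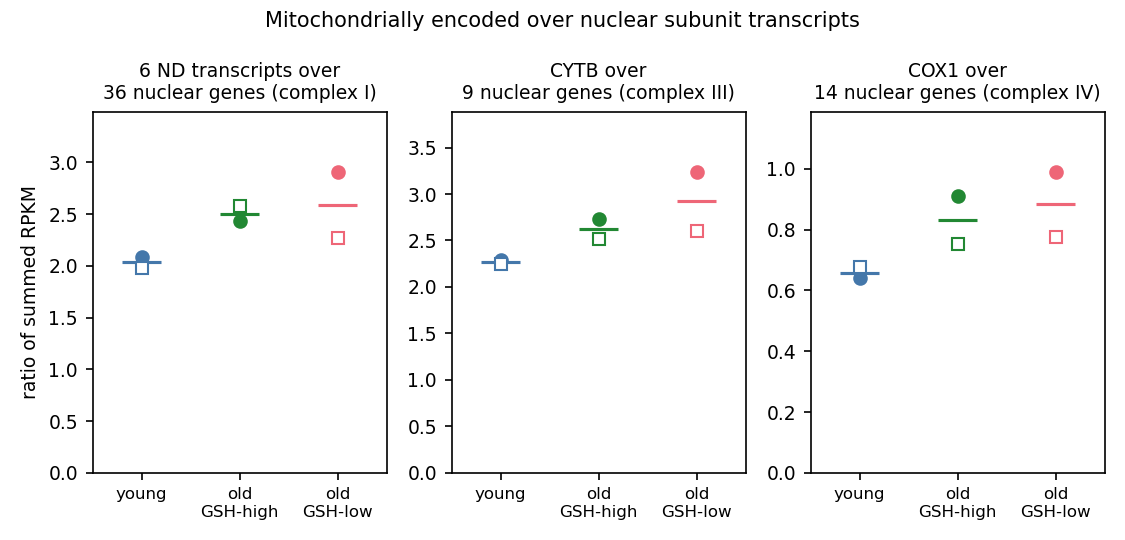
Summed RPKM of the mitochondrially encoded members over that of the nuclear genes of the same complex (y axis, linear from 0) in each library, with filled circles for replicate 1, open squares for replicate 2 and lines for group means. The young libraries lie at 1.98 and 2.09 for complex I, 2.25 and 2.29 for complex III and 0.642 and 0.676 for complex IV, below all 4 old libraries in each panel.

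The other lists are set beside the share of all genes tested, of which 15.1% rose and 13.7% fell in old GSH-high and 18.1% rose and 18.7% fell in old GSH-low against young cells. Of 18 genes that transcribe and maintain mitochondrial DNA, 3 rose (16.7%) and 1 fell (5.56%) in old GSH-high, and 4 rose (22.2%) and 3 fell (16.7%) in old GSH-low against young cells, and 0 passed between the old groups. Shares of this size are near those of all genes. Without old GSH-high replicate 1 the first set was 1 and 0. Without young replicate 2 it was 4 and 3. The second set was 2 and 0 without young replicate 1 or old GSH-low replicate 1, and 2 and 1 without old GSH-low replicate 2.

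Tfam, which packs mitochondrial DNA and starts its transcription, was at 18.7 and 16.9 RPKM in young, 21.5 and 20.1 in old GSH-high, and 17.6 and 16.9 in old GSH-low libraries. It passed in no comparison, and neither did Polrmt, the mitochondrial RNA polymerase (limma adjusted p from 0.0967 to 0.757 for both genes). Tk2, a mitochondrial thymidine kinase, rose by 0.54 and 0.63 in the old groups. Mgme1, an exonuclease of mitochondrial DNA, rose by 0.40 in old GSH-high cells, and Top1mt, its topoisomerase, fell by 0.61 and 0.50.

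Of 19 genes that process, stabilise or degrade mitochondrial RNA, 1 rose (5.26%) and 2 fell (10.5%) in old GSH-high and 4 fell (21.1%) in old GSH-low against young cells, again near the shares of all genes. Between the old groups 0 passed. Without either old GSH-high library the first set was 0 and 0, and 1 fell without young replicate 1 or either old GSH-low library. The 4 became 1 when old GSH-low replicate 1 was left out and 2 when replicate 2 was. Elac2, which cuts transfer RNAs out of the long RNAs, fell by 0.36 and 0.67, and Rexo2, which degrades short RNAs, by 0.35 and 0.46. Pnpt1, the exonuclease PNPase, rose by 0.46 in old GSH-high cells, and Grsf1, an RNA-binding protein of mitochondrial RNA granules, fell by 0.29 in old GSH-low cells. Lrpprc, which stabilises mitochondrial messenger RNAs, passed in no comparison. It was at 4.53 and 4.98 RPKM in young, 4.48 and 4.77 in old GSH-high, and 3.78 and 3.87 in old GSH-low libraries.

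Of 10 genes of mitochondrial translation and protein insertion, 2 fell in old GSH-high and 3 fell in old GSH-low against young cells, among them the elongation factor Tsfm (-0.37 and -0.49) and the insertase Oxa1l (-0.31 and -0.32). The 2 became 0 without young replicate 1 or either old GSH-high library, and 1 without either old GSH-low library. The 3 became 1 without old GSH-low replicate 1 and 5 without young replicate 2. Of 31 assembly factors, 6 fell (19.4%) and 8 fell (25.8%), and 0 rose. Uqcc3, of complex III, was at -0.63 and -0.54, and Coa3, of complex IV, at -0.57 and -0.67. The 6 became 0 and 1 without old GSH-high replicates 1 and 2, and 3 and 12 without young replicates 1 and 2. The 8 became 1 without old GSH-low replicate 1, 3 and 13 without young replicates 1 and 2, 4 without any other library, and 2 with scaling by library size only. Between the old groups, 0 genes of either list passed.

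Of 10 regulators of mitochondrial biogenesis, 2 rose against young cells in both old groups, near the share of all genes, and 0 passed between those groups. They were Pprc1, a coactivator related to PGC-1alpha (0.43 and 0.48), and the nuclear receptor Esrrg (0.47 and 0.38). The count was 0 in old GSH-high cells without old GSH-high replicate 1, and 1 in old GSH-low cells without either old GSH-low library. Ppargc1a, the gene of PGC-1alpha itself, was under 0.64 RPKM in every library and was not tested.

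Of 16 genes of mitophagy and mitochondrial stress, 1 rose (6.25%) and 6 fell (37.5%) in old GSH-high and 3 rose (18.8%) and 8 fell (50.0%) in old GSH-low against young cells. Hspd1 and Hspe1 encode the chaperonin of the mitochondrial matrix. Hspd1 stood at -1.03 in old GSH-high and -1.11 in old GSH-low cells, and Hspe1 at -1.78 and -1.56 (limma adjusted p from 2.71e-05 to 7.27e-05 over these 4 values). The 1 rise became 0 without young replicate 2 or any old library. The 3 rises and 8 falls became 0 and 3 when old GSH-low replicate 1 was left out, 1 and 6 when its replicate 2 was, and 1 and 8 without young replicate 2. Between the old groups the stress transcription factor gene Ddit3 was the only call of this list. It was at 0.51 in old GSH-low cells (limma adjusted p = 0.0464), just inside the threshold. The call was lost with a pseudocount of 0.1, with an RPKM of at least 5 asked, and without any of the 4 old libraries (limma adjusted p from 0.13 to 0.284).

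The genes most like the members over the 6 libraries were Eif1b, Rab9, Dek, Hnrnpdl and Rpl22l1, with Pearson r of 0.958 to 0.965 against the mean log2 level of the 8 members among 4854 genes compared. The points share their libraries and scaling, and r is given as a description. Eif1b, a translation initiation factor gene, shows what they share. It was at 65.3 RPKM in young replicate 1 and at 53.8 to 54.6 in the other 5 libraries.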

How the data were processed

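The authors deposited RPKM for 12067 lines. The submitters' processing notes name edgeR, STAR, Trim Galore and featureCounts (Subread), with the builds mm10 and GRCm38. Per the labels' protocols, libraries were oligo(dT)-primed and read as single ends of 150 bases. Whole reads were recovered from the RPKM steps for 12065 genes (99.98%, within 0.02 reads plus a relative tolerance of 3e-07), all 8 members among them. 230 values were read as replaced zeros. Genes with RPKM of at least 1 in 2 libraries (10609) were fitted as log2(RPKM + 1) with limma-trend (limma 3.58.1, R 4.3.3) as 3 groups over 6 libraries, and called changed where the two-sided p, adjusted after Benjamini and Hochberg over that set, was under 0.05. The pseudocount of 1 understates changes of low genes such as ND3. The scripts were tested on simulated data. Members, the 9 pathway lists and the 7 marker lists were chosen with earlier results of these data known. Named are all members, up to 3 changed genes per list and comparison in order of p, a panel (Tfam, Polrmt, Lrpprc, Ppargc1a, Cox4i1, Cyc1, Ndufs1) and the 5 genes with the highest r to the members, among genes tested with mean RPKM of at least 5. The text names part of them. The genes compared for r also had to reach a minimum SD over the libraries, set from the SD of the member mean. Shares and ratios were compared by exact permutation over libraries. Alternatives were other scalings, filters, limma-voom on recovered reads, the 4 libraries of a comparison alone, a pseudocount of 0.1, the replicate number as a block, a loess trend (span 0.3) over length and GC content removed, and each library left out. Python 3.11.15 was used with matplotlib 3.10.9, scipy 1.17.1, pandas 2.3.3 and numpy 2.4.6.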

Additional observations from a re-analysis of the deposited data

How the results depend on the processing

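Precision is set by 2 libraries per group, and for ND3 also by its 58 to 166 reads. Each fit with a library left out has 1 library in that group, and its spread rests on the other groups. With an RPKM of at least 5 asked, ND3 left the fit. The count of members changed (main 0) was 1 in old GSH-high against young by limma-voom, and 6 in both comparisons with young when the trend over length and GC content was removed. Leaving out a library gave 0 to 7 in old GSH-high and 0 to 6 in old GSH-low against young. The labels do not say whether a replicate number marks a shared animal or day. Same-numbered deviations had correlations of -0.142, -0.263 and 0.069. With 1 value per pair of groups, these cannot decide whether the samples are paired. With the replicate block, 1 member, ND3, passed in each comparison with young (limma adjusted p = 0.0412 and 0.0406). Of all genes, the block called 479, 2559 and 3350 in old GSH-low against old GSH-high, old GSH-high against young and old GSH-low against young, where 571, 3051 and 3901 were called without it. The block also ended the calls of Ddit3 between the old groups and of Cox8b in old GSH-high against young, and called 4 assembly factors (8 without it) and 2 RNA processing genes (4 without it) in old GSH-low against young.

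The count of all genes changed between the old groups was 274 with an RPKM of at least 5, 864 from the 4 libraries alone and 312 to 863 with a library left out. With a library left out it was 1493 to 3802 in old GSH-high and 2068 to 4295 in old GSH-low against young. The share of reads differed by 0.00525 (old GSH-high) and 0.0262 (old GSH-low) percentage points from young without young replicate 1, and by -0.128 and -0.107 without young replicate 2.

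Signs turned in small values. Between the old groups, with the trend over length and GC content removed, ND1 was at -0.039, ND2 at -0.025, ND3 at -0.068 and ND6 at -0.057. With a library left out, ND3 ranged from -0.026 to 0.085, ND6 from -0.004 to 0.107 and COX1 from -0.023 to 0.189. In old GSH-high against young, ND2 ranged from -0.493 to 0.009 and ND5 from -0.037 to 0.273 with a library left out. In old GSH-low against young, the ranges over libraries left out were -0.426 to 0.076 for ND2, -0.55 to 0.023 for ND4, -0.236 to 0.06 for ND5, with 0.029 without young replicate 1, -0.479 to 0.027 for ND6 and -0.272 to 0.042 for COX1. The log2 ratio of members to nuclear genes between the old groups ranged from -0.142 to 0.214 (complex I), -0.016 to 0.303 (complex III), -0.098 to 0.254 (complex IV) and -0.1 to 0.246 (all). For complex IV it was -0.026 with geometric means and -0.043 without old GSH-high replicate 2. The cause was not tested.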
